A study of Capra hircus with 12 samples.

Results

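The genes described here are 76 genes of the extracellular matrix and of the receptors that bind it, out of 15810 genes listed for every library. They are the genes whose pathway annotation in the deposited tables holds the KEGG term ECM-receptor interaction, with the fatty acid translocase CD36 left out. They comprise 17 collagen chains, 11 laminin chains, 20 integrin subunits, 16 other matrix proteins and 12 other receptors, which include the CD36-like gene LOC100860959. The count filter kept 65 of them for testing: 13 collagens, all 11 laminins, all 20 integrins, 13 other matrix proteins and 8 other receptors. The 11 removed were COL2A1, COL4A3, COL4A4, COL9A2, COMP, TNR, VTN, GP1BA, GP5, SV2B and SV2C, none of which exceeded 70 counts in any library.

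RNA was taken by biopsy from the mammary gland of lactating female dairy goats (Capra hircus) that received an infusion of glucose, with 4 libraries sequenced for each of the low, middle and high doses. The labels give the doses by name only, so the low dose is the reference used here, and no gland without glucose was analysed here. Whether the libraries of 1 dose represent different animals is not stated in the labels, so the p-values measure the spread between these libraries. Each library held between 9555072 and 12716883 counts.

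The epithelium of the mammary gland rests on a basement membrane built from laminin trimers, type IV collagen and the proteoglycan perlecan, and the stroma around it is built largely from fibrillar collagens and type VI collagen. Integrins, each a pair of an alpha and a beta subunit, bind these proteins and pass signals to the cytoskeleton, and syndecans, dystroglycan and CD44 bind matrix through other contacts. In this tissue, laminin binding is a known condition for milk protein expression in cultured epithelial cells, and matrix breakdown is a known feature of involution after weaning.

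Libraries differed in composition in ways that dose did not account for. The 8 milk protein genes measured took 7.69% ± 6.14, 43.0% ± 26.5 and 19.9% ± 16.0 (SD, n = 4) of counts in the low, middle and high groups, and middle-dose replicate 3 stood apart from its group at 3.44%. The tables also came in different layouts, 1 shared by 8 libraries and the other by low-dose replicate 3, middle-dose replicate 1 and replicates 1 and 4 of the high dose. Luminal epithelial markers summed to between 2529 and 5593 CPM (the counts of a gene relative to the scaled size of its library) and none of the 9 was at 0 in any library, while 11 myoepithelial markers summed to between 1929 and 3332 CPM. CPM values here are scaled by TMM, which sets each library's composition against the others.

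Measured against all counts, the 76 genes took 1.91% ± 0.66, 0.846% ± 0.396 and 1.23% ± 0.667 (SD, n = 4) at the low, middle and high dose. Once milk protein counts were taken out of the total, the shares were 2.10% ± 0.84, 1.51% ± 0.46 and 1.47% ± 0.59. The differences between doses were then within the spread of the libraries. In whole tissue, fewer cells of a type and less RNA per cell cannot be told apart.

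No gene of the 13624 tested, and so none of the 65, passed an adjusted p of 0.05 in edgeR's quasi-likelihood test in any comparison of doses or in the test of any difference. Without adjustment, 20 of the 65 had p under 0.05 between the middle and the low dose (30.8%, where 23.7% of all genes did). Of these, 17 had lower estimates at the middle dose (26.2%, against 11.3% of all genes) and 3 had higher ones (4.62%, against 12.5%). Between the high and the low dose the count was 6 of 65, with 5 lower and 1 higher, where 11.5% of all genes had p under 0.05, 4.18% lower and 7.27% higher. Between the high and the middle dose it was 9 of 65, with 6 higher and 3 lower, where 14.9% of all genes had p under 0.05, 7.49% higher and 7.4% lower. The test of any difference gave 16 of 65, or 24.6%, beside 21.4% of all genes.

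Estimates below the low dose were the more frequent among these genes. At the middle dose 44 of 65 were lower (67.7%, against 52.6% of all genes), with a median log2 difference of -0.19 beside -0.03 over all genes. At the high dose 49 of 65 were lower (75.4%, against 53.0%), with a median of -0.23, also beside -0.03. Between the high and the middle dose 31 of 65 were lower at the high dose (47.7%, against 47.2%), with a median of 0.03 for both. Leaving out 1 library moved the middle-dose median between -0.36 (without low-dose replicate 2) and -0.16 (without low-dose replicate 1), and the high-dose median between -0.43 (without high-dose replicate 1) and -0.08 (low-dose replicate 4 left out). Scaling by total counts alone moved the median of all genes by -0.83 between the middle and the low dose, by -0.29 between the high and the low dose and by 0.54 between the high and the middle dose. On that scale 63, 59 and 6 of the 65 were lower in the same 3 comparisons (96.9%, 90.8% and 9.23%). Of all genes, 95.0%, 81.6% and 8.60% were.

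**Figure D1:**
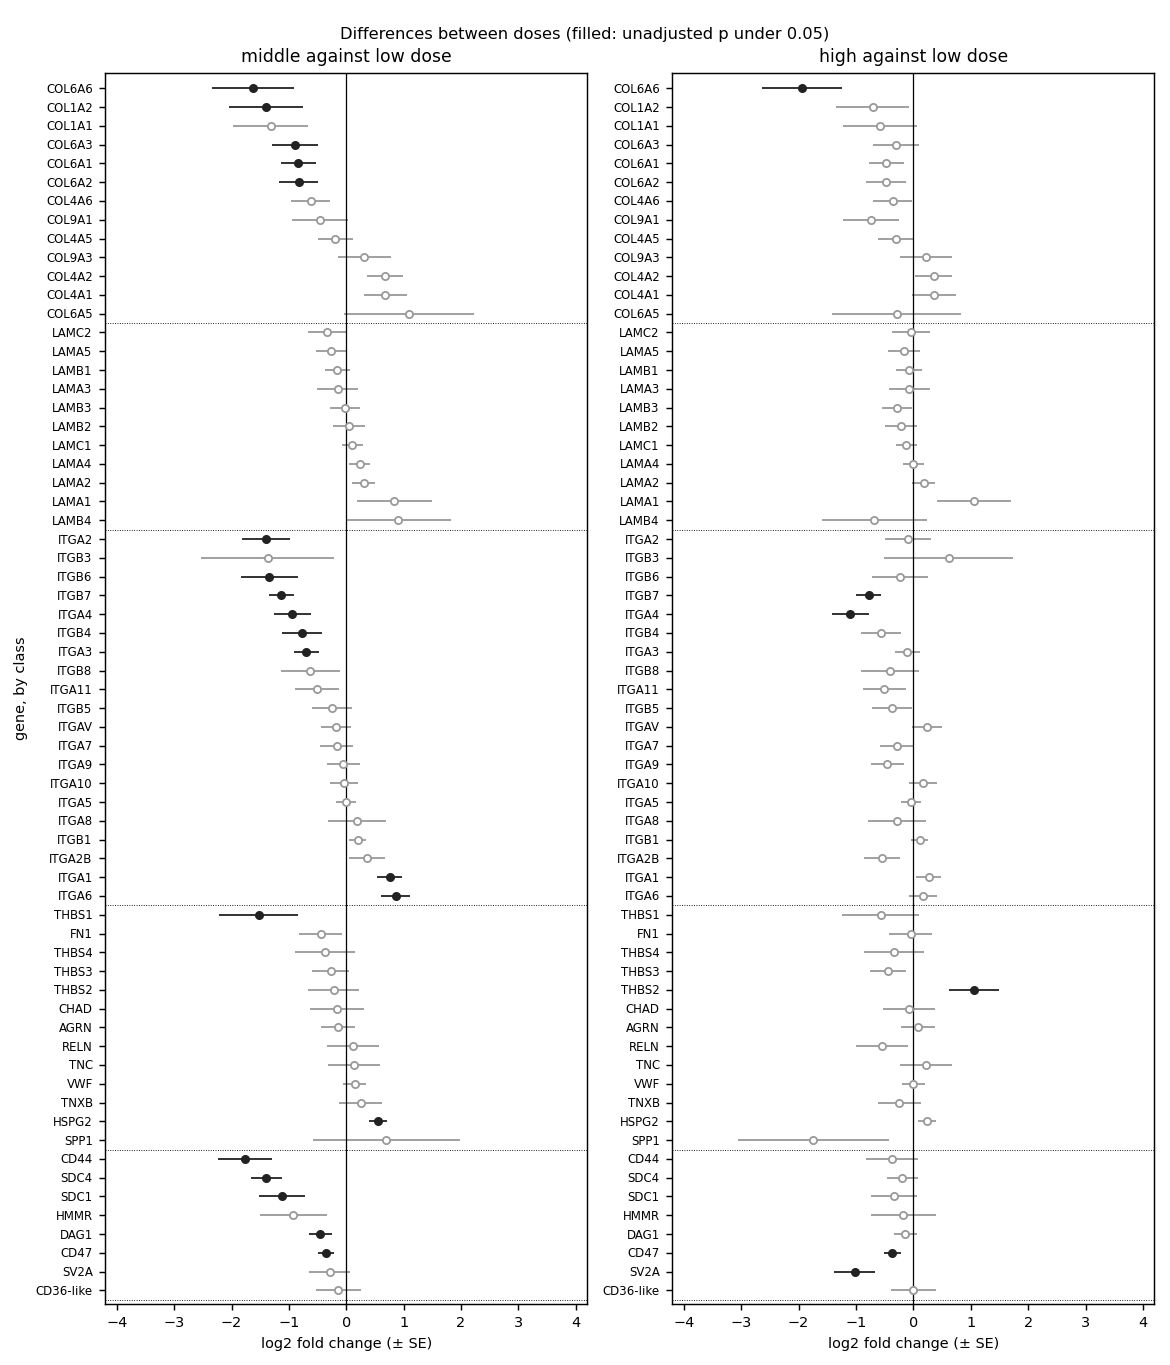
Log2 fold change (x axis, with standard errors) of the 65 tested genes, grouped by class on the y axis, for the middle dose (left) and the high dose (right) against the low dose. Filled points have an unadjusted p under 0.05: 20 of 65 on the left and 6 of 65 on the right, and none passes after adjustment.

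Calls appeared when the test or the set of libraries was changed. DESeq2 called 8 of the 65 between the middle and the low dose (12.3%, where it called 10.3% of all genes): SDC4, ITGB7, CD44, ITGA2 and ITGA3 lower, and HSPG2, ITGA1 and ITGA6 higher. Limma voom with quality weights called 26 of 65 (40.0%, against 35.9% of all genes), and between the high and the middle dose 1, SDC4 (1.54%, against 1.73%). Without middle-dose replicate 3, edgeR called 10 of 66 (15.2%, against 17.3%), namely those 8 with SDC1 and ITGB8. It then also called SDC1, SDC4 and ITGA2B between the high and the middle dose (4.55%, against 3.66%). For any difference DESeq2 called 6 of 65 (9.23%, against 8.21%), and edgeR without that library called 6 of 66 (9.09%, against 9.34%). Each of these shares lay near that of all genes.

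Collagens form the fibres, networks and beaded filaments of the matrix. The 17 chains listed summed to 6407 ± 4403, 3499 ± 1249 and 4623 ± 1992 CPM (SD, n = 4) at the low, middle and high dose, and 61.1% of that sum came from the type I chains COL1A1 and COL1A2. The low-dose libraries alone ran from 2902 to 12853 CPM, so the groups overlapped. Between the middle and the low dose 9 of the 13 tested chains had lower estimates (69.2%, against 52.6% of all genes), 5 of them with unadjusted p under 0.05 (38.5%, against 23.7%), and the class median was -0.62. With the milk protein share as a covariate 7 of 13 were lower (53.8%, against 52.0%) and the median was -0.32. Under that covariate 3 of 13 had p under 0.05, where 11.9% of all genes did. Between the high and the low dose 10 of 13 were lower (76.9%, against 53.0%) and 1 had p under 0.05 (7.69%, against 11.5%), with a median of -0.36.

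**Figure D2:**
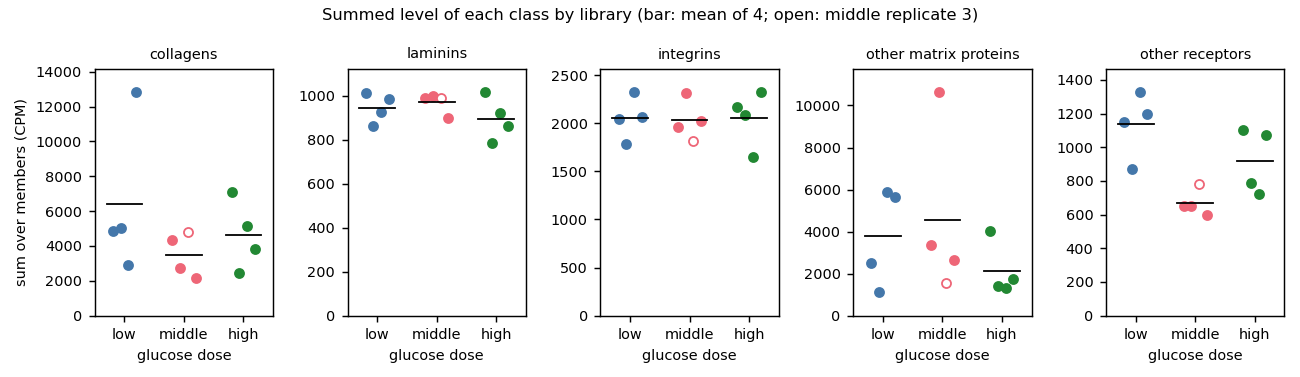
Summed CPM of the members of each class (y axis) in each library, by glucose dose (x axis); bars are means of 4 libraries and the open point is middle-dose replicate 3. Summed over the 12 other receptors, libraries lie between 599 and 780 CPM at the middle dose and between 872 and 1330 at the low dose, whereas laminins and integrins have similar means at all doses.

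Type I collagen is the main fibrillar collagen of connective tissue. COL1A1 (chromosome 19, positions 35612159 to 35630229 in the tables' coordinates, for which no build is stated) measured 1491, 1542, 687 and 4706 CPM at the low dose. In the middle-dose group it measured 1285, 442, 1354 and 308 CPM, and in the high-dose group 2375, 530.5, 1359 and 1354 CPM. The highest library was low-dose replicate 4 and the lowest middle-dose replicate 4, and the 3 groups overlapped. The difference between the middle and the low dose was -1.31 ± 0.65 (log2, SE; edgeR adjusted p = 0.242) for COL1A1 and -1.40 ± 0.64 (adjusted p = 0.21) for COL1A2. Without low-dose replicate 4 they became -0.55 and -0.52. That library was the highest of the 12 for 6 of the 13 collagens, and middle-dose replicate 4 was the lowest for 6.

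Type VI collagen forms beaded filaments around cells and adipocytes. Its 3 main chains had alike estimates between the middle and the low dose: COL6A1 at -0.83 ± 0.31, COL6A2 at -0.83 ± 0.34 and COL6A3 at -0.89 ± 0.40, with edgeR adjusted p of 0.136, 0.175 and 0.206. COL6A1 measured 557, 316, 323 and 747 CPM at the low dose, 320.5, 267, 286 and 215 CPM at the middle dose and 521, 249, 316 and 311 CPM at the high dose. COL6A5, a later-described chain, was at 179.9 CPM in middle-dose replicate 3 and between 2.66 and 41.4 CPM in the other 11 libraries. COL6A6 had the lowest estimate of the class at the high dose, -1.94 ± 0.70 against the low dose (adjusted p = 0.386), on levels of at most 4.63 CPM in any library. Fibroblast markers summed to 293 to 503, 292 to 402 and 302 to 512 CPM in the low, middle and high groups, and 7 of 9 tested were lower at the middle than at the low dose. Of the 9, 4 had unadjusted p under 0.05 in that comparison, where 23.7% of all genes did. The part of these markers in the collagen values was not tested.

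Type IV collagen, the network-forming collagen of basement membranes, had estimates of the other sign in its main chains, COL4A1 and COL4A2. COL4A1 measured 216, 719.6, 383 and 363 CPM at the low dose, 644, 659, 762 and 634 CPM at the middle dose and 389, 426, 979.5 and 361 CPM at the high dose. The 4 middle-dose libraries were close together and above 3 of the 4 low-dose libraries. The differences between the middle and the low dose were 0.68 ± 0.38 for COL4A1 and 0.68 ± 0.32 for COL4A2 (edgeR adjusted p = 0.29 and 0.221). With scaling by total counts alone they turned to -0.11 and -0.16, still above the median of all genes on that scale by 0.75 and 0.70. COL4A5 and COL4A6, whose annotated spans overlap on chromosome X and whose reads there cannot be told apart without strand, had values of -0.19 ± 0.31 and -0.62 ± 0.34.

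Laminins are trimers of an alpha, a beta and a gamma chain. The 11 chains summed to 947 ± 67, 970 ± 48 and 897 ± 99 CPM (SD, n = 4) at the low, middle and high dose. None had unadjusted p under 0.05 in any comparison by edgeR. Of all genes, 23.7% (middle against low), 11.5% (high against low) and 14.9% (high against middle) did. Limma voom called 1 of the 11 between the middle and the low dose, where it called 35.9% of all genes. Class medians were 0.04 between the middle and the low dose, -0.08 between the high and the low dose and -0.13 between the high and the middle dose. LAMC1, the gamma chain shared by most laminins, measured 232, 250.3, 178 and 221 CPM at the low dose, 260.2, 203, 245 and 239 CPM at the middle dose and 240.3, 154, 249 and 166 CPM at the high dose. LAMA2 and LAMA4, alpha chains of muscle and vessel basement membranes, differed by 0.30 ± 0.20 and 0.24 ± 0.18 between the middle and the low dose (adjusted p = 0.376 and 0.447). LAMB4 was lowest in high-dose replicate 4, at 0.589 CPM, and highest in middle-dose replicate 2, at 37.5 CPM.

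**Figure D3:**
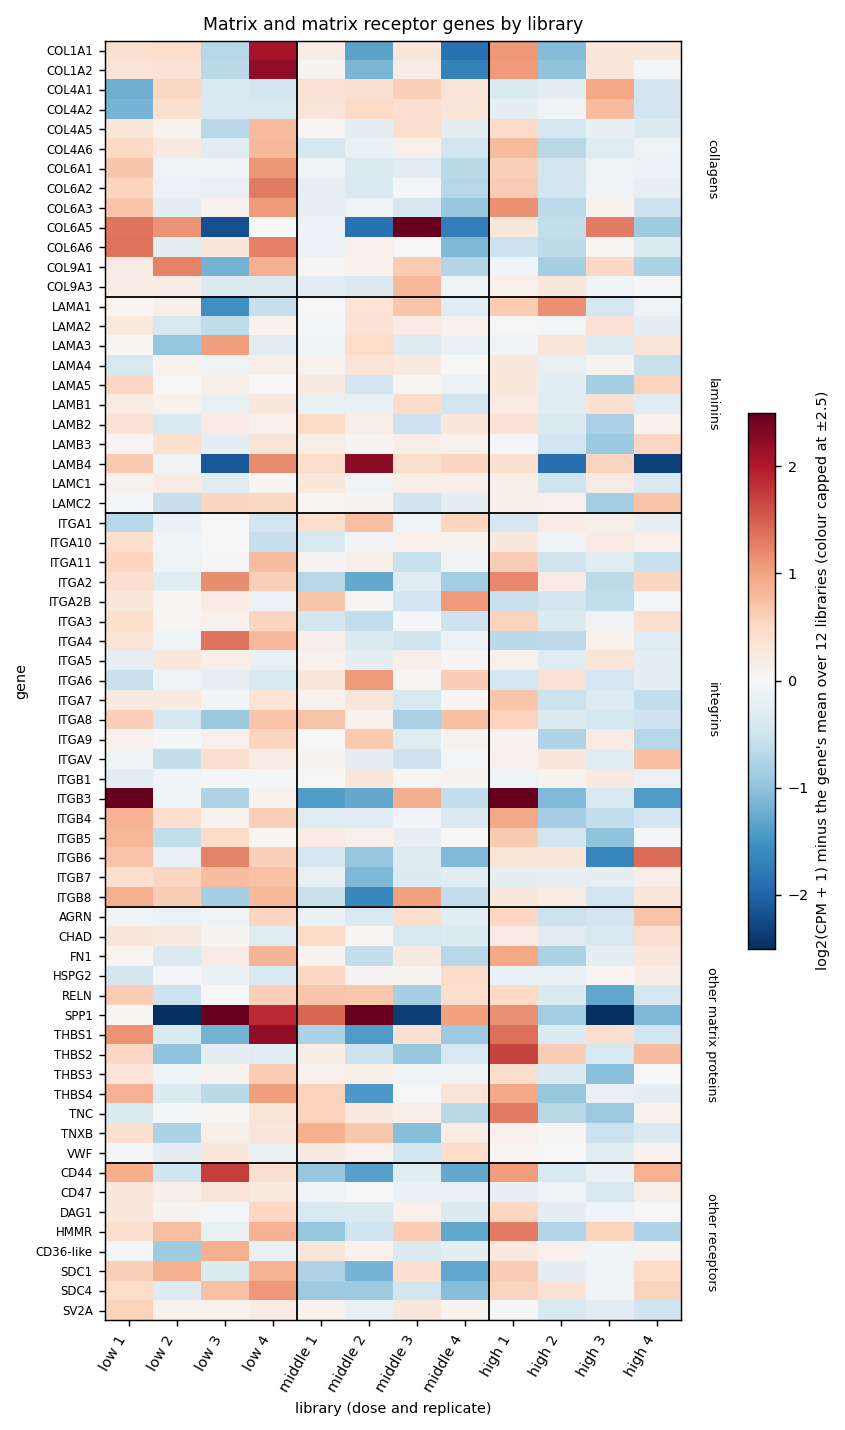
Each cell gives log2(CPM + 1) of 1 gene (row) in 1 library (column) minus the mean of that gene over the 12 libraries; colour is capped at 2.5. The rows COL1A1 and COL1A2 follow each other from library to library, SPP1 and ITGB3 swing within every dose, and most laminin rows are pale.

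Integrins summed to 2057 ± 222, 2031 ± 209 and 2057 ± 292 CPM (SD, n = 4) at the low, middle and high dose. The sum hid opposite estimates among subunits. Between the middle and the low dose 15 of 20 subunits had lower estimates (75.0%, against 52.6% of all genes), 8 had unadjusted p under 0.05 (40.0%, against 23.7%), of which 6 were lower and 2 higher, and the class median was -0.22. ITGA3, ITGB4, ITGB6 and ITGB7 were lower in every middle-dose library than in any low-dose library, and ITGA6 and ITGB1 were higher. Over all 65 genes 6 were lower and 3 higher without overlap, beside 5.92% and 5.93% of all genes.

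ITGA6, the alpha subunit of laminin receptors of epithelium and endothelium, measured 259, 347, 328 and 291 CPM at the low dose, 462, 792, 385 and 582 CPM at the middle dose and 281, 489, 285 and 318 CPM at the high dose. Every middle-dose library was above every low-dose library, and the middle and high doses overlapped. The middle dose was 1.81-fold higher than the low dose, a log2 difference of 0.86 ± 0.25 (edgeR adjusted p = 0.0889). ITGA1, the alpha subunit of a collagen receptor, was 1.69-fold higher at 0.76 ± 0.22 (adjusted p = 0.0868), with 105 ± 22.3 CPM (SD, n = 4) at the low dose and 177 ± 40.8 at the middle dose. With the milk protein share as a covariate these estimates became 0.47 ± 0.25 and 0.43 ± 0.23, and with scaling by total counts alone they turned to -0.12 and -0.21. Those scaled values were still above the median of all genes by 0.74 and 0.65.

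Endothelial markers also had higher estimates at the middle than at the low dose. All 9 tested did, 6 of them with unadjusted p under 0.05, where 23.7% of all genes had p under 0.05. The markers summed to 485 to 641, 552 to 1151 and 498 to 735 CPM in the low, middle and high groups, with none at 0. Within the middle dose their sum was lowest in replicate 3. ITGA1 and ITGA6 were also lowest there, COL4A1 was highest, and COL4A2 and HSPG2 were neither. The part of these markers in the values of ITGA1, ITGA6, COL4A1, COL4A2 and HSPG2 was not tested.

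ITGA2, the alpha subunit of another collagen receptor, lies 18527 bases from ITGA1 on chromosome 20 with no listed gene between, and had an estimate of the other sign. It measured 19.8, 11.6, 34.0 and 22.6 CPM at the low dose, 8.47, 5.38, 11.7 and 7.54 CPM at the middle dose and 34.7, 16.9, 8.95 and 21.6 CPM at the high dose. The low and middle doses overlapped by a single library of each. The middle dose was 2.63-fold lower than the low dose, at -1.39 ± 0.42 (edgeR adjusted p = 0.0942). The high dose was above the middle dose by 1.30 ± 0.42 (adjusted p = 0.246). Among the 8 libraries of the larger table layout, where the high dose had replicates 2 and 3 alone, this was 0.63 ± 0.43.

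ITGA3 and ITGB4, epithelial laminin receptor subunits, and ITGB6, an epithelial subunit that with the alpha V subunit activates TGF-beta, also had lower middle-dose estimates. Their differences from the low dose were -0.69 ± 0.22, -0.77 ± 0.35 and -1.34 ± 0.49 (edgeR adjusted p = 0.103, 0.209 and 0.136). ITGB6 measured 418, 226, 595 and 381 CPM at the low dose and 189, 129, 201 and 118 CPM at the middle dose. The high-dose group ran from 81.3 to 667 CPM and so covered both other groups. Epithelial markers differed between these doses in both directions. Luminal markers summed to 2529 to 3421 CPM at the low dose and 3410 to 5593 CPM at the middle dose. Of the 9, 5 were lower and 4 had unadjusted p under 0.05. Of 11 myoepithelial markers, 5 were lower and 3 had p under 0.05. Of all genes, 52.6% were lower and 23.7% had p under 0.05. The myoepithelial and basal keratin KRT5 went from a mean of 816 to 313 CPM and the luminal keratin KRT7 from 349 to 119 CPM, whereas the luminal factor ELF5 went from 803 to 2521 CPM. Their part in the values of these subunits was not tested. ITGB4 became -0.36 ± 0.40 with the milk protein share as a covariate. Without high-dose replicate 1, ITGB4 was called between the high and the low dose at -1.17 ± 0.19 (adjusted p = 0.0492), the sole member called there, where 0.139% of all genes were.

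ITGB7 and ITGA4, which pair into a homing receptor of lymphocytes, had lower estimates at both upper doses. ITGB7 measured 19.1, 21.0, 24.6 and 24.2 CPM at the low dose, 12.2, 5.90, 10.9 and 11.4 CPM at the middle dose and 11.8, 12.1, 11.8 and 16.0 CPM at the high dose. No low-dose library overlapped either other group. The differences from the low dose were -1.13 ± 0.22 at the middle dose (edgeR adjusted p = 0.0735) and -0.78 ± 0.22 at the high dose (adjusted p = 0.386). For ITGA4 they were -0.94 ± 0.32 and -1.10 ± 0.32 (adjusted p = 0.117 and 0.386). Among the libraries of the larger layout, where the high dose had replicates 2 and 3 alone, they were -0.73 ± 0.32 and -0.60 ± 0.35. These comparisons share the low-dose libraries.

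T cell markers summed to 114 to 193, 46.0 to 93.6 and 46.1 to 96.4 CPM in the low, middle and high groups. All 6 had lower estimates at both upper doses, where 52.6% of all genes did at the middle and 53.0% at the high dose. The part of these markers in the values of ITGB7 and ITGA4 was not tested. Besides ITGB7, only SV2A was lower without overlap at the high than at the low dose, so that 2 of 65 were lower and 0 higher, where 2.47% and 2.25% of all genes were. SV2A is a synaptic vesicle protein that KEGG places in the pathway, and it stayed below 2.20 CPM in every library.

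**Figure D4:**
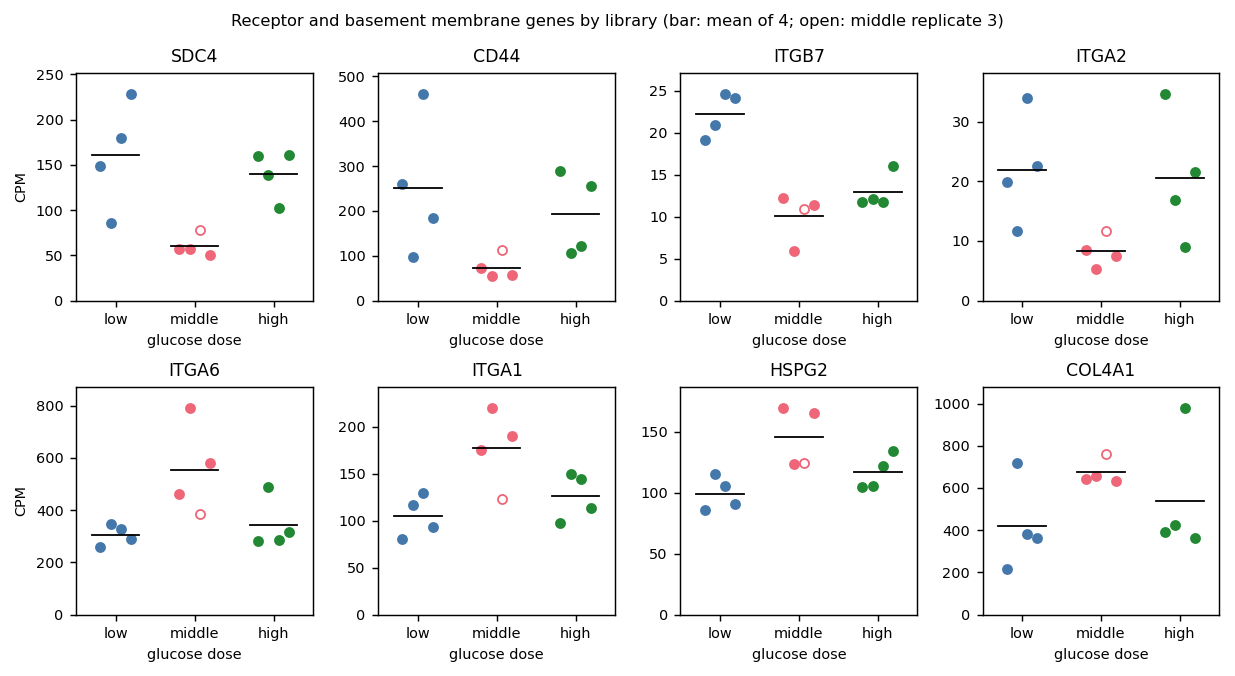
CPM (y axis) of 8 genes in each library, by glucose dose (x axis); bars are means of 4 libraries and the open point is middle-dose replicate 3. SDC4 and ITGB7 are lower and ITGA6 and HSPG2 higher in all 4 middle-dose libraries than in any low-dose library.

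Among the other matrix proteins, perlecan (HSPG2), the heparan sulfate proteoglycan of basement membranes, measured 85.9, 115, 105 and 90.5 CPM at the low dose, 169.7, 124, 124 and 165 CPM at the middle dose and 105, 106, 122 and 134 CPM at the high dose. Every middle-dose library was above every low-dose library, by 1.47-fold in the fit, or 0.55 ± 0.16 (edgeR adjusted p = 0.0863). Scaling by total counts alone turned this to -0.34, which was 0.52 above the median of all genes. Fibronectin (FN1), at 439 ± 161, 322 ± 102 and 424 ± 221 CPM (SD, n = 4) at the low, middle and high dose, overlapped in all groups.

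Thrombospondins are secreted matrix glycoproteins that regulate adhesion and vessel growth. THBS1 measured 753, 269, 153 and 1616 CPM at the low dose and 199, 129, 455 and 186 CPM at the middle dose, a difference of -1.53 ± 0.69 (edgeR adjusted p = 0.206) that became -0.69 without low-dose replicate 4. THBS2 measured 69.9, 32.6, 15.5 and 36.7 CPM at the high dose and between 9.93 and 30.4 CPM at the low dose. It had the sole higher estimate with unadjusted p under 0.05 between the high and the low dose, 1.06 ± 0.44 (adjusted p = 0.402). Without high-dose replicate 1 this was 0.60, and among the libraries of the larger layout, where the high dose had replicates 2 and 3 alone, 0.38 ± 0.48.

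Osteopontin (SPP1), a secreted phosphoprotein that is also a milk constituent and an integrin ligand, was the most variable member. It measured 772, 51.4, 4702 and 2730 CPM at the low dose, 2034, 9698, 146 and 1523 CPM at the middle dose and 1657, 409, 56.9 and 345 CPM at the high dose. On the log2 scale the range within each dose was wider than any difference between doses, and no comparison had an adjusted p under 0.404 in edgeR. SPP1 made up 57.7% of the CPM sum of its class. ITGB3, a subunit of receptors for osteopontin and vitronectin, was at 195 CPM in high-dose replicate 1 and 101 CPM in low-dose replicate 1, and between 5.67 and 32.3 CPM in the other 10 libraries.

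The other receptors had the lowest class median between the middle and the low dose with TMM scaling. With scaling by total counts alone the collagens were lower, at -1.37 beside -1.32 for the other receptors. All 8 receptors tested had lower estimates at the middle than at the low dose, where 52.6% of all genes did. Of these, 5 had unadjusted p under 0.05 (62.5%, against 23.7%), and the median was -0.69, or -1.07 without middle-dose replicate 3. With the milk protein share as a covariate 7 of 8 were lower (87.5%, against 52.0%) and the median was -0.48. Under that covariate 3 of 8 had p under 0.05, where 11.9% of all genes did. The sum over all 12 listed was 1137 ± 192, 670 ± 77 and 921 ± 195 CPM (SD, n = 4) at the low, middle and high dose, and the low and middle groups did not overlap. Of counts outside milk proteins they took 0.167% ± 0.028, 0.0872% ± 0.016 and 0.127% ± 0.037.

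Syndecan-4 (SDC4, chromosome 13, positions 71668011 to 71676728), a heparan sulfate proteoglycan of focal adhesions, had the smallest edgeR p of the 65 between the middle and the low dose. It measured 148, 85.6, 179.5 and 228 CPM at the low dose, 56.8, 57.6, 78.2 and 50.7 CPM at the middle dose and 160.0, 139, 102 and 161 CPM at the high dose. All 4 middle-dose libraries were below all 8 others. The middle dose was 2.63-fold lower than the low dose, at -1.40 ± 0.27 (edgeR adjusted p = 0.0735, DESeq2 adjusted p = 0.000393). In DESeq2 the adjusted p of ITGB7 was smaller, at 0.00035. The high dose was 2.31-fold above the middle dose, at 1.20 ± 0.27 (edgeR adjusted p = 0.201; DESeq2 adjusted p = 0.00692).

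In that last comparison SDC4 was the sole member without overlap, 1 of 65 higher and 0 lower, where 3.33% of all genes were higher and 2.61% lower, and the sole one that DESeq2 called, where it called 2% of all genes. The SDC4 estimate at the middle dose was -1.44 ± 0.31 with the milk protein share as a covariate and -1.26 ± 0.35 among the libraries of the larger layout (edgeR adjusted p = 0.207). Leaving out low-dose replicate 2 also made it a call, the sole one of 66 members tested, where 0.116% of all genes were called.

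CD44, the hyaluronan receptor, measured 261, 97.7, 461 and 185 CPM at the low dose, 72.1, 53.9, 112 and 56.8 CPM at the middle dose and 289, 106, 122 and 255 CPM at the high dose. The middle-dose libraries were low, with an overlap of 1 library on each side. The middle dose was 3.4-fold lower than the low dose, at -1.76 ± 0.47 (edgeR adjusted p = 0.0800; DESeq2 adjusted p = 0.00527), and -1.24 ± 0.40 among the libraries of the larger layout. CD44 is also expressed by leukocytes. The 5 macrophage markers summed to between 208 and 550 CPM at the low dose and 145 and 289.5 CPM at the middle dose. All 5 had lower estimates with unadjusted p under 0.05, where 11.3% of all genes did. The part of these markers in the CD44 values was not tested.

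Syndecan-1 (SDC1), the main syndecan of epithelia, measured 61.7, 76.4, 32.0 and 75.3 CPM at the low dose and 23.5, 17.5, 54.8 and 15.9 CPM at the middle dose. Replicate 3 was the high middle-dose library: without it the difference went from -1.12 ± 0.40 (edgeR adjusted p = 0.130) to -1.69 (adjusted p = 0.0112). With the milk protein share as a covariate it was -0.64 ± 0.33. CD47, an integrin-associated receptor for thrombospondin, had small and even differences, -0.35 ± 0.15 and -0.37 ± 0.15 for the middle and the high dose against the low dose (adjusted p = 0.174 and 0.396). Dystroglycan (DAG1), which binds laminin and perlecan, differed by -0.46 ± 0.20 at the middle dose (adjusted p = 0.193) and by -0.26 ± 0.21 with the covariate.

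Chains that assemble into 1 molecule were compared as ratios of counts within a library, which do not depend on scaling. A ratio also depends on transcript length, so differences of a ratio between libraries are given rather than its size. COL1A1 to COL1A2 stayed between 0.840 and 1.20 over the 12 libraries while each chain ranged over 3.9 log2 units. COL4A1 to COL4A2 stayed between 2.28 and 2.87, and COL6A1 to COL6A2 between 0.985 and 1.28. In these 3 pairs the ratio spanned at most 0.51 log2 units. COL6A1 to COL6A3 was wider, from 0.807 to 1.52, a span of 0.92 log2 units where the chains themselves ranged over 1.79 and 2.09.

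The integrin pairs had wider spans, from 1.44 log2 units for ITGAV to ITGB1 to 3.07 for ITGA2 to ITGB1. The ratio of ITGA6 to ITGB4, which pair into the hemidesmosome integrin, lay between 1.90 and 4.18 at the low dose and between 5.42 and 12.8 at the middle dose, without overlap. The mean log2 ratio was 1.54 ± 0.50 (SD, n = 4), 3.10 ± 0.53 and 2.42 ± 1.09 at the low, middle and high dose. The difference of 1.56 between the middle and the low dose had p = 0.0286 in a two-sided exact permutation test, the smallest that 4 against 4 allows, and 0.286 after Benjamini-Hochberg adjustment over 10 pairs and 3 comparisons. ITGA2 to ITGB1 differed by -1.55 with the same exact p values. ITGA6 also pairs with ITGB1, so the ratio does not count assembled receptors.

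**Figure D5:**
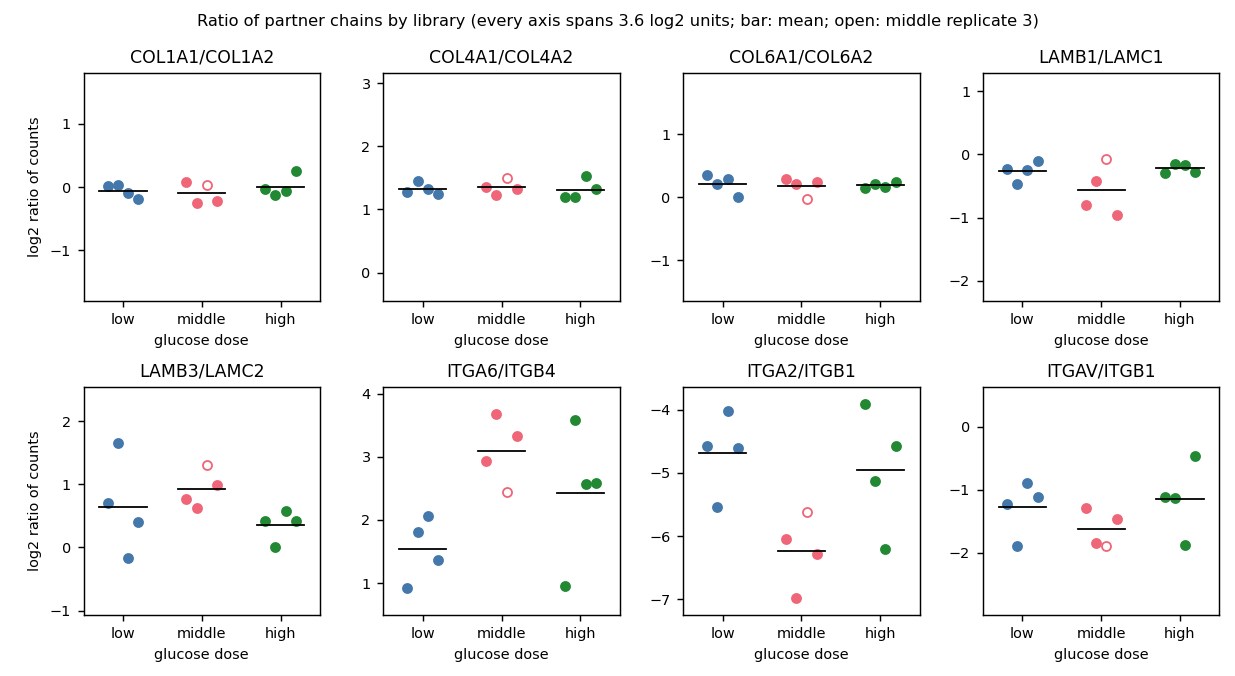
Log2 ratio of the counts of 2 partner chains (y axis) in each library, by glucose dose (x axis); every axis spans the same range, bars are means of 4 libraries and the open point is middle-dose replicate 3. The 3 collagen pairs shown span at most 0.51 log2 units, while ITGA6/ITGB4 is higher and ITGA2/ITGB1 lower in all 4 middle-dose than in all 4 low-dose libraries.

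Within a dose these genes had a wider median spread than all genes tested. The median SD of log2 CPM within a dose was 0.52 over the 65 genes and 0.37 over all 13624. It was 0.57 for collagens, 0.43 for laminins, 0.44 for integrins, 0.64 for other matrix proteins and 0.49 for other receptors. The steadiest member was ITGB1, the beta subunit shared by most matrix-binding integrins, at 0.14, followed by CD47 at 0.15 and HSPG2 at 0.21.

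Genes that build, cut and anchor to matrix were read from 4 further lists. Of 19 collagen-processing genes tested, 14 had lower estimates between the middle and the low dose (73.7%, against 52.6% of all genes), with a median of -0.36 that became -0.17 with the milk protein share as a covariate. Of the 19, 6 had unadjusted p under 0.05 (31.6%, against 23.7%), 2 higher and 4 lower. PLOD2, a lysyl hydroxylase that sets collagen cross-links, was at 51.4 ± 11.5, 188 ± 83.6 and 67.9 ± 28.6 CPM (SD, n = 4) at the low, middle and high dose. It was higher in every middle-dose than in any low-dose library, at 1.87 ± 0.41 (edgeR adjusted p = 0.0735; DESeq2 adjusted p = 0.000726). P4HB, a prolyl hydroxylase subunit and disulfide isomerase, was at 411 ± 40.3, 606 ± 66.1 and 607 ± 140 CPM.

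Of 23 matrix proteases and inhibitors, 20 had lower estimates at the middle than at the low dose (87.0%, against 52.6% of all genes), with a median of -0.48, and 5 had unadjusted p under 0.05 (21.7%, against 23.7%), all lower. The plasminogen activator PLAT was at 70.6 ± 27.0, 32.6 ± 7.50 and 73.3 ± 16.5 CPM at the low, middle and high dose, and its mean was lowest at the middle dose. Its difference from the low dose was -1.11 ± 0.28 (edgeR adjusted p = 0.0762; DESeq2 adjusted p = 0.00833). The gelatinase MMP2 was at 313 ± 181, 137 ± 34.4 and 218 ± 80.6 CPM.

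Of 40 matrix proteins outside the KEGG list, 29 had lower middle-dose estimates (72.5%, against 52.6% of all genes), with a median of -0.27, and 5 had unadjusted p under 0.05 (12.5%, against 23.7%), 4 of them lower. TGFBI, a collagen-binding matrix protein, was at 75.7 ± 23.7, 28.8 ± 9.53 and 41.7 ± 18.3 CPM (SD, n = 4) at the low, middle and high dose, with a middle-dose difference of -1.38 ± 0.33 (edgeR adjusted p = 0.0735; DESeq2 adjusted p = 0.00401). COL17A1, the transmembrane collagen of hemidesmosomes, was at 104 ± 14.3, 68.8 ± 14.1 and 74.0 ± 24.3 CPM.

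The 26 adhesion adaptors, which link integrins to actin, divided evenly at the middle dose, 13 lower and 13 higher, with a median near 0 and 3 of each direction with unadjusted p under 0.05 (23.1% in all, against 23.7% of all genes). Focal adhesion kinase (PTK2) was at 76.1 ± 2.89 CPM (SD, n = 4) at the low dose and 101 ± 8.29 at the middle dose, at 0.40 ± 0.10 (edgeR adjusted p = 0.0762). VASP, an actin regulator at focal adhesions, was at 66.7 ± 4.36 and 47.6 ± 6.06 CPM, at -0.49 ± 0.13 (adjusted p = 0.0774). FERMT3, the kindlin of blood cells, was at 12.5 ± 3.25 and 5.78 ± 1.21 CPM, at -1.11 ± 0.27 (adjusted p = 0.0735). DESeq2 called these 3 of the 26, where it called 10.3% of all genes.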

How the data were processed

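Each library's table held raw read counts per gene, deposited by the authors as whole numbers. Libraries were made with an Illumina TruSeq kit, per the labels' protocols. Bowtie 0.12.2 and the mouse build mm8 appear in the submitters' processing notes, while the tables list goat genes. How reads were counted, with or without strand, and on which goat build is not given in the sources used here. The 15810 genes common to both table layouts were used. Chromosome numbers were assigned through gene IDs shared with RefSeq's ARS1.2 annotation, and positions are those of the tables.

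Genes were filtered with filterByExpr (minimum count 10, minimum total 15), scaled by TMM (factors 0.514 to 1.50) and tested with edgeR 4.0.16 in R 4.3.3 on all 12 libraries, with dose as the factor and Benjamini-Hochberg adjustment over all 13624 genes at a threshold of 0.05. The fit gave a common coefficient of biological variation of 0.363. The procedure was tested on simulated data. DESeq2 1.42.0, limma 3.58.1, other scalings and filters, a milk share covariate, table layout, a replicate block and leaving out each library were the alternatives.

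The members and lists were chosen with earlier results of these data known. Named in each class were the 4 smallest p of each comparison, the 3 highest mean counts and a set of well-known genes, and in each further list the 2 smallest p per comparison. Of these, the text describes a part. The lists were collagen processing (19 of 24 genes measured under a single ID), proteases and inhibitors (24 of 29 listed), matrix proteins outside KEGG (41 of 43) and adhesion adaptors (26 of 28). Cell type markers covered 10 lists. Those not given in the report were pericyte (207 to 372 CPM at the low dose, 221 to 363 at the middle and 197 to 276 at the high dose), neutrophil (16.8 to 52.0, 12.0 to 41.1 and 24.0 to 103 CPM), adipocyte (6.78 to 30.7, 5.28 to 20.1 and 3.91 to 8.84 CPM) and platelet markers (up to 0.594, 2.64 and 0.644 CPM).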

Additional observations from a re-analysis of the deposited data

Results flagged for a closer look

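In 144 groups of 4 libraries, 8 had a library far from the other 3 relative to the range of the group, where chance alone marks about 1 group in 20. COL4A1 was at 979.5 CPM in high-dose replicate 3, above its group. COL6A6 was at 0 CPM in middle-dose replicate 4, below its group, on very few counts. DAG1 was at 164 CPM in middle-dose replicate 3, above its group. That library also stood apart in the share of all counts held by integrins, 0.250%, again above its group, but milk proteins took only 3.44% of its counts. Of counts outside milk proteins its integrins took 0.259%, where the middle-dose group ran from 0.250% to 0.285%. ITGB1 was at 474 CPM in low-dose replicate 1, below its group. ITGB7 was at 5.90 CPM in middle-dose replicate 2, below its group, and at 16.0 CPM in high-dose replicate 4, above its group. LAMB4 was at 37.5 CPM in middle-dose replicate 2, above its group.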

How the results depend on the processing

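Calls depended on the test and on the libraries included, and no alternative scaling called a gene. Genes called between the high and the low dose went from 0 to 57 with DESeq2 and 8 among the libraries of the larger layout; between the middle and the low dose to 1410 with DESeq2 and 4886 with limma; between the high and the middle dose to 272 and 236; and for any difference to 1119 with DESeq2. Members called went to 8 and 26 between the middle and the low dose, to 1 and 1 between the high and the middle dose, and to 6 for any difference. For high against low, members with unadjusted p under 0.05 went from 6 to 14 with limma and 11 with the larger layout. These were 21.5% and 16.4% of members, against 21.4% and 21.9% of all genes. For middle against low, the count went from 20 to 32 with total counts alone and 13 with the milk share covariate. These were 49.2% and 20% of members, against 43.5% and 11.9% of all genes. For high against middle, it went from 9 to 15 with limma and 5 with the larger layout. These were 23.1% and 7.46% of members, against 25.5% and 12.9% of all genes. With total counts alone the medians became -0.47, -1.09 and 0.56. With the larger layout, which held replicates 2 and 3 alone of the high dose, the median of high against low became -0.63. The cause was not tested.

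Leaving out 1 library at a time gave 0 to 19 genes called (high against low), 0 to 2390 (middle against low), 0 to 505 (high against middle) and 0 to 1289 (any difference). Members called ranged over 0 to 1, 0 to 10, 0 to 3 and 0 to 6 in the same order. Members with unadjusted p under 0.05 ranged over 3 to 14, 11 to 22, 6 to 18 and 10 to 18. The share of all genes with p under 0.05 ranged as well, over 6.05% to 20.1%, 15.6% to 34.7%, 8.37% to 26.5% and 13.01% to 32.3%. The 3 medians ranged over -0.43 to -0.08, -0.36 to -0.16 and -0.09 to 0.09. The highest counts of calls for middle against low, high against middle and any difference came without middle-dose replicate 3.

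Deviations from the dose means correlated at -0.535 to 0.379 between libraries with the same replicate number and at -0.637 to 0.476 between others. The numbers were not used as pairs. Since unlike numbers ranged as widely, the correlations cannot tell whether libraries shared an animal or a batch. With a replicate block, 0 members were called. Between the middle and the low dose 14 had unadjusted p under 0.05 (21.5%, against 21.1% of all genes). For high against low 7 did (10.8%, against 10.05%), and for high against middle 8 did (12.3%, against 13.2%). With no count filter all 76 members were tested and 0 were called, with 8, 21 and 10 at unadjusted p under 0.05 (high against low, middle against low, high against middle). The 21 and the 10 were 27.6% and 13.2% of members, against 21.4% and 13.5% of all genes. Beside the 8 of 76 for high against low, 10.6% of all genes had p under 0.05.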
